A study of Homo sapiens with 12 samples.

Results

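The ABC drug efflux transporters ABCB1, ABCC1, ABCC2, ABCC3, ABCC4, ABCC5 and ABCG2 were followed by RNA-seq in HT-29 cells, a long-established line from a human colon adenocarcinoma whose APC gene is mutant per the labels. They were chosen by gene symbol, and all 7 were found among the 25528 rows of the deposited expression table. There were 12 libraries in 4 groups of 3. One arm compared cells infected with lentivirus encoding GFP, the control, with cells infected with lentivirus encoding CTNNB1, both collected on day 2 after infection. The other arm compared cells carrying the control hairpin shNT1 with cells carrying a hairpin against APC (shAPC), both infected with lentivirus and collected on day 1 after induction with 2 µM doxycycline. Vector, collection day and doxycycline differ between the arms, so each perturbed group was tested against its own control. The effects of the arms were compared by a contrast, and levels of groups from different arms are set side by side as description only. The question was how these perturbations, both of which are routes to stronger WNT signalling, change the expression of these pumps. Whether WNT signalling rose in either arm was not tested here. All groups share the APC mutation of the parent line and are 1 cell line, and the labels do not say whether replicates were separate infections, so p-values measure only the spread between these libraries.

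ABC transporters bind ATP through paired nucleotide-binding domains and use its hydrolysis to move substrates across a membrane. The drug efflux members pump xenobiotics and their conjugates out of cells, and in the intestine they limit what is absorbed and return metabolites to the lumen or the blood. ABCB1 (P-glycoprotein) and ABCG2 (breast cancer resistance protein) sit in the apical membrane of enterocytes, as does ABCC2. ABCC3 sits in the basolateral membrane, and ABCC1 also exports conjugates away from the lumen. ABCC4 and ABCC5 carry cyclic nucleotides and nucleotide analogues. WNT signalling acts through beta-catenin, the product of CTNNB1, which APC helps to mark for destruction and which activates genes together with TCF/LEF factors.

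The genes lie on 7 chromosomes of GRCh38, the assembly that the submitters' processing notes name as hg38. RefSeq (GRCh38.p14) places ABCB1 (ENSG00000085563) at chromosome 7, 87503017 to 87713295, and ABCG2 (ENSG00000118777) at chromosome 4, 88090264 to 88231626. It places ABCC1 (ENSG00000103222) at chromosome 16, 15949143 to 16143053, and ABCC2 (ENSG00000023839) at chromosome 10, 99782640 to 99852594. ABCC3 (ENSG00000108846) lies at chromosome 17, 50634881 to 50692253, and ABCC4 (ENSG00000125257) at chromosome 13, 95019835 to 95301451. ABCC5 (ENSG00000114770) lies at chromosome 3, 183919934 to 184017884. In GENCODE v29 no exon of these genes shares bases with an exon of another gene. Introns of other genes were not examined. Of the 50-base stretches of the protein-coding transcripts, 2.38% of those of ABCB1 also occur in ABCB4, its closest paralog, and 0% of those of each of the other 6 genes occur in any other gene.

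Upstream sequences are shown for 3 transporters whose CTNNB1 and GFP libraries did not overlap: ABCG2 and ABCC2, whose values were lower with CTNNB1, and ABCC4, whose values were higher. They are the exon-free parts, by GENCODE v29, of the 250 bases before an annotated RefSeq start (GRCh38.p14), read 5′ to 3′ on the gene's strand. The stretch for ABCG2 is chr4:88159025-88159159 (minus strand, before 1 of its 5 starts), that for ABCC4 is chr13:95301476-95301701 (minus strand) and that for ABCC2 is chr10:99782390-99782639 (plus strand). Capitals mark matches to 4 motifs searched on both strands: the TCF/LEF core CTTTGAT, the antioxidant response element core TGACNNNGC, the xenobiotic response element core GCGTG and the TATA box TATAAA.
ABCG2: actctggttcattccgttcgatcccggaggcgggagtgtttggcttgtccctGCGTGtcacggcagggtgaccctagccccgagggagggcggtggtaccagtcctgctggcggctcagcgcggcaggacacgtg
ABCC4: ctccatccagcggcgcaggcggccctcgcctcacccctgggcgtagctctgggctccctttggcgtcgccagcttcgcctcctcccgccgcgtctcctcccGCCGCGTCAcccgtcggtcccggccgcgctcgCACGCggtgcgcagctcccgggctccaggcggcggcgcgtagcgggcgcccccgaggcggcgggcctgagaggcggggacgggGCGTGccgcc
ABCC2: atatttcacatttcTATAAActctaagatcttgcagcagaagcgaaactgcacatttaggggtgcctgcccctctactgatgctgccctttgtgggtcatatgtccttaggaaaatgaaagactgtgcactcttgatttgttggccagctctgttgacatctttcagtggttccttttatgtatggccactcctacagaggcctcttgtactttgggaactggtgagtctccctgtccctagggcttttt

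The RefSeq table held 10 upstream windows for 5 of the 7 genes; ABCC1 and ABCC3 had no entry. None of the 10 windows contained the TCF/LEF core, which occurs in 2.26% of all 35116 windows of 250 bases. The window of ABCC4 held 1 antioxidant response element core and 2 xenobiotic response element cores, motifs found in 10.9% and 32.2% of all windows. The printed stretch of ABCG2 shows 1 xenobiotic response element core, and its whole window held 2, as did 2 other ABCG2 windows, 1 of which overlaps it, while the remaining 2 ABCG2 windows held 0. ABCC2 and ABCC5 each had 1 TATA box, against 10.7% of all windows. The window of ABCC4 was 80.4% G and C and that of ABCC2 45.6%, against a median of 58% over all windows. A match is a description of the letters only.

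Levels are in TPM, which corrects for transcript length, so genes can be compared, and which sums to 1000000 in each library. TPM keeps no read depth, so the depth behind each value is unknown, and no counting interval or detection limit can be given. The number of genes with a TPM above 0 ran from 14756, in shNT1 replicate 3, to 16186. APC, the hairpin's target, averaged 16.4 TPM (SD 0.80, n = 3) in shNT1 against 5.99 TPM (SD 0.56, n = 3) in shAPC. CTNNB1 averaged 146 TPM with GFP virus and 160 TPM with CTNNB1 virus, a difference that limma did not call (adjusted p = 0.0587). Its libraries did not overlap (144 to 150 against 156 to 165 TPM), where 30.2% of genes tested lay higher without overlap. Overexpression in this arm thus rests on the labels. Of 10 colon epithelial markers 8 had a mean of at least 1 TPM in every group; CDX1 and CDX2, transcription factors of intestinal identity, stayed below that. Of 12 fibroblast, endothelial, blood and hepatocyte markers 11 stayed under 1 TPM in every library, the exception being CD14, CD3E and ALB were at 0 in all 12, and the list's summed level lay between 2.01 and 4.21 TPM. Per gene, log2(TPM + 1) was compared with limma, and a Benjamini-Hochberg adjusted p under 0.05 over all genes tested counted as a call. Genes needed a mean of at least 1 TPM over the 6 libraries of an arm. ABCC1, ABCC3, ABCC4, ABCC5 and ABCG2 passed this filter in both arms, while ABCC2 and ABCB1 passed in neither and are described by their values.

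With CTNNB1, ABCG2 fell the most of the 5 drug efflux pumps tested, from 88.3 to 49.1 TPM on average, ABCC3 fell by a smaller amount and ABCC4 rose. In shAPC libraries ABCC3 fell, from 131 to 90.4 TPM, and it was the only pump called there. ABCC1 and ABCC5 were not called in either arm. In the CTNNB1 arm 3 of the 5 tested pumps were called (1 higher, 2 lower), where 23.5% of all 11624 genes were called (16.3% higher and 7.16% lower). In the shAPC arm 1 of 5 was called, lower, where 22.1% of all 11834 genes were called (7.24% higher and 14.9% lower). The groups did not overlap for 3 of the 5 tested pumps in the CTNNB1 arm (1 higher, 2 lower), against 43.2% of the genes tested (30.2% higher and 13% lower), and for 3 of the 5 in the shAPC arm (1 higher, 2 lower), against 40.9% (14.5% higher and 26.4% lower). The split of all calls depended on scaling. Higher calls made up 69.5% in the CTNNB1 arm with TPM as deposited, 46.1% with median-ratio scaling and 53% with quantile normalization, and 32.8%, 44.3% and 49.4% in the shAPC arm. The directions of the called pumps were the same under both scalings. The count of all calls in the CTNNB1 arm also moved by over 1.5 times when a library was left out: it was 1617, 1499 or 1705 without GFP replicate 1, 2 or 3 and 1760 without CTNNB1 replicate 2. In the shAPC arm it was 1646 without shAPC replicate 2 and 1484 without shAPC replicate 3.

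**Figure D1:**
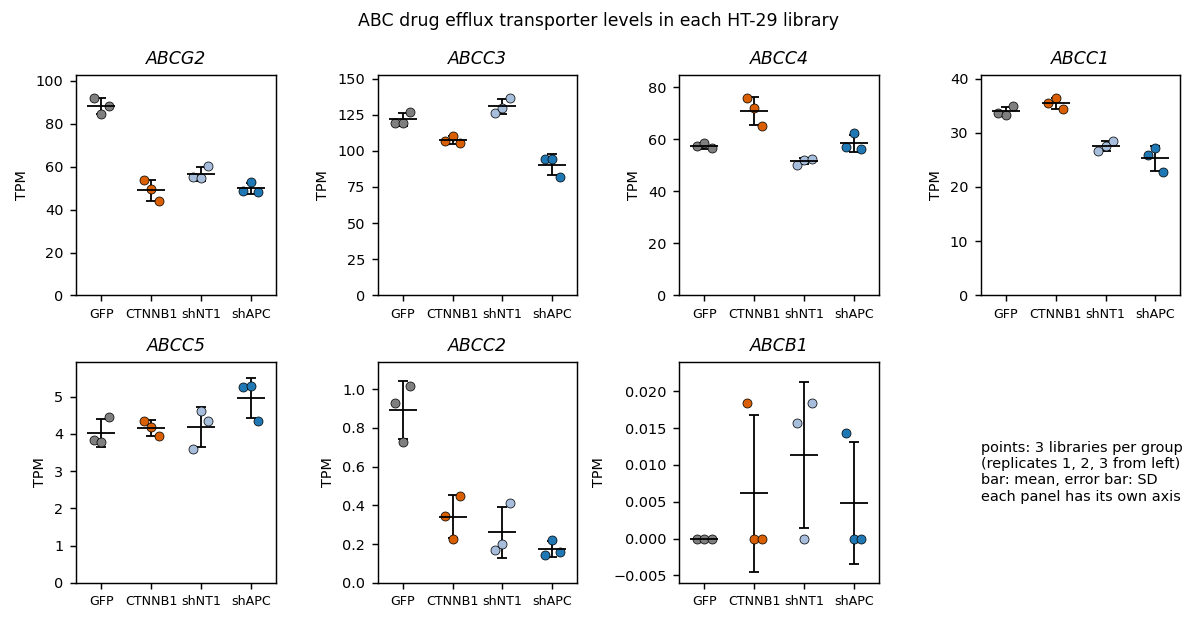
TPM of each transporter (y axis, one panel per gene, each with its own scale) in the 3 libraries of each group (x axis), with the mean as a bar and the SD as error bar. The GFP libraries of ABCG2 lie between 84.7 and 91.9 TPM, above all other libraries, ABCC3 is lowest in shAPC, and ABCB1 does not exceed 0.0184 TPM.

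The expressed pumps differed widely in level. Averaged over the 12 libraries, ABCC3 stood at 113 TPM, ABCG2 at 61 TPM, ABCC4 at 59.6 TPM and ABCC1 at 30.6 TPM, while ABCC5 was at 4.33 TPM, ABCC2 at 0.417 TPM and ABCB1 at 0.00557 TPM. ABCC3 exceeded 94.4% of all rows of the table in mean TPM, and ABCB1 exceeded 31.4%. These shares count rows at 0 in every library, as only 18804 of the 25528 rows had any value above 0. The 7 genes together summed to 306 ± 6 TPM in GFP, 267 ± 12.5 TPM in CTNNB1, 271 ± 10.6 TPM with shNT1 and 229 ± 14.3 TPM with shAPC (SD, n = 3 each). ABCG2 held 28.8% of this sum in GFP and 18.3% in CTNNB1, and ABCC4 held 18.8% and 26.5%. In the hairpin arm ABCC3 went from 48.2% in shNT1 to 39.4% in shAPC and ABCC4 from 19% to 25.5%, while ABCG2 held 20.9% and 21.8%. These sums describe transcript levels only.

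**Figure D2:**
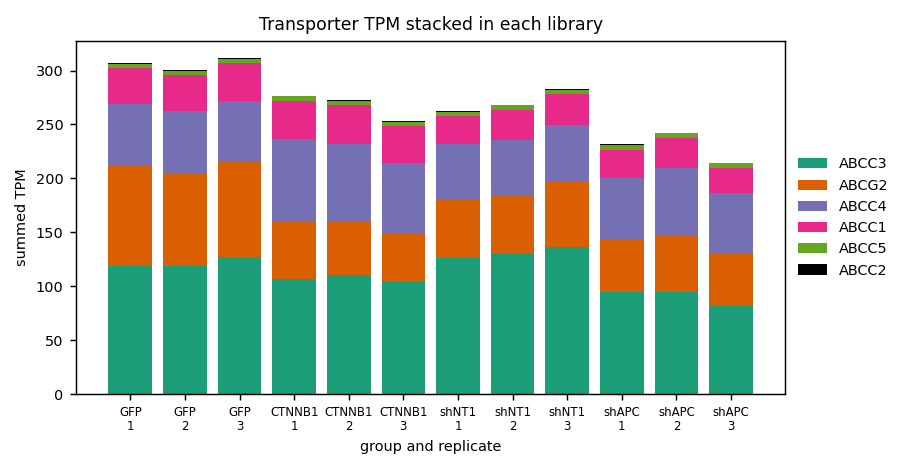
Summed TPM of the transporters in each library (y axis), stacked by gene, for the 12 libraries by group and replicate (x axis); ABCB1 is too low to be drawn. The ABCG2 segment is tallest in the 3 GFP libraries, the ABCC3 segment is shortest in the 3 shAPC libraries, and the group means of the whole stack run from 229 TPM in shAPC to 306 TPM in GFP.

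ABCG2 is a half-transporter that works as a dimer and exports urate, porphyrins and many drugs. Its 3 GFP libraries held 91.9, 84.7 and 88.1 TPM and its 3 CTNNB1 libraries 53.8, 49.4 and 44 TPM. Every CTNNB1 library was far below every GFP library. The fall was 44.4% of the GFP mean, with a log2 fold change of -0.84 (SE 0.07, 95% interval -1 to -0.68, limma adjusted p = 6.03e-05). It was called in all 15 alternatives, with log2 fold changes between -0.91 and -0.76.

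In the hairpin arm ABCG2 held 55.2, 54.6 and 60.5 TPM in shNT1 and 48.6, 53 and 48.4 TPM in shAPC. No shAPC library reached the lowest shNT1 library. The difference of -0.18 on the log2 scale (SE 0.06, 95% interval -0.32 to -0.04) was not called (limma adjusted p = 0.0648), nor was it in any of the 15 alternatives. The 4 group means ran from GFP down through shNT1 (56.8 TPM) and shAPC (50 TPM) to CTNNB1, and the libraries of shAPC and CTNNB1 overlapped. The GFP level thus stood apart from the 3 other groups, among them the other control. What the vector, the day and doxycycline contribute to the levels of the 2 controls cannot be told apart.

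ABCC3 exports glucuronide conjugates and bile acids across the basolateral membrane. Its GFP libraries held 119, 119 and 127 TPM and its CTNNB1 libraries 107, 110 and 105 TPM. The groups did not overlap, and the mean was 11.8% lower with CTNNB1. On the log2 scale the change was -0.18 (SE 0.05, 95% interval -0.28 to -0.07, limma adjusted p = 0.0235). This call was not stable: the adjusted p was 0.0622, 0.0682 and 0.0991 without GFP replicate 1, 2 or 3, 0.0512 without CTNNB1 replicate 3, and 0.054 without the variance trend. It was 0.00442 with median-ratio scaling, where the log2 fold change was -0.25.

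The same gene changed more in the hairpin arm. ABCC3 held 126, 130 and 136 TPM in the shNT1 libraries and 94.7, 94.4 and 82.2 TPM in the shAPC libraries. Every shAPC library lay below every shNT1 library, with a mean 30.8% lower. The log2 fold change was -0.53 (SE 0.07, 95% interval -0.67 to -0.38, limma adjusted p = 0.000417) and was called in all 15 alternatives. The order of the group means was shNT1, GFP, CTNNB1 and shAPC, and of the neighbours in this order only shNT1 and GFP overlapped. Of the 8 colon epithelial markers tested, 0 rose and 4 fell in the shAPC arm (CDH1, KRT19, KRT20 and LGALS4), against 3 up and 2 down in the CTNNB1 arm (2 and 2 with median-ratio scaling). Over all genes tested, 7.24% were called higher and 14.9% lower with shAPC, and 16.3% and 7.16% with CTNNB1. The summed level of all 10 markers lay between 9683 and 11326 TPM in shNT1 and between 9211 and 10176 TPM in shAPC. Their part in the fall of ABCC3 was not tested.

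ABCC4 exports cyclic nucleotides, prostaglandins and nucleoside analogues. Its GFP libraries held 57.3, 58.5 and 56.5 TPM and its CTNNB1 libraries 75.8, 72 and 65.2 TPM. All CTNNB1 libraries were higher, and they also varied more than the GFP libraries (SD 5.37 against 0.98 TPM). The rise was 23.6%, with a log2 fold change of 0.3 (SE 0.06, limma adjusted p = 0.00705), and it had an adjusted p of at most 0.0356 in the 15 alternatives.

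In the hairpin arm ABCC4 held 50.2, 51.8 and 52.6 TPM in shNT1 and 56.9, 62.3 and 56.3 TPM in shAPC. The shAPC libraries all lay above the shNT1 libraries. The log2 fold change of 0.18 (SE 0.06, 95% interval 0.05 to 0.31) missed the threshold by little (limma adjusted p = 0.05002). It was called higher in 4 alternatives, among them median-ratio scaling (0.22, limma adjusted p = 0.0198) and quantile normalization (0.25, limma adjusted p = 0.0125). The CTNNB1 group had the highest mean and shNT1 the lowest, while the shAPC and GFP libraries overlapped.

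ABCC1 exports glutathione conjugates and leukotriene C4. Its libraries held 33.6, 33.3 and 34.9 TPM in GFP and 35.4, 36.4 and 34.4 TPM in CTNNB1. They held 26.7, 27.6 and 28.4 TPM in shNT1 and 25.9, 27.2 and 22.7 TPM in shAPC. The groups overlapped within both arms, and both groups of the open reading frame arm lay above both hairpin groups. For ABCC1 the log2 fold change was 0.06 (95% interval -0.06 to 0.18, limma adjusted p = 0.443) with CTNNB1 and -0.12 (95% interval -0.28 to 0.04, limma adjusted p = 0.258) with shAPC. These intervals leave room for a change of up to 0.28 on the log2 scale in size.

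ABCC5 exports cyclic nucleotides and antimetabolites. Its level was low, from 3.58 to 5.3 TPM over the 12 libraries. The means were 4.02 ± 0.37 TPM in GFP and 4.15 ± 0.21 TPM in CTNNB1, then 4.18 ± 0.53 TPM with shNT1 and 4.97 ± 0.54 TPM with shAPC (SD, n = 3 each), with overlap in both arms. Its log2 fold change was 0.04 (95% interval -0.16 to 0.24, limma adjusted p = 0.776) with CTNNB1 and 0.21 (95% interval -0.04 to 0.45, limma adjusted p = 0.201) with shAPC. All neighbouring groups in the order of means overlapped.

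ABCC2, the apical pump for bilirubin glucuronide and other conjugates, was weakly expressed. Its libraries held 0.93, 0.73 and 1.02 TPM in GFP and 0.347, 0.226 and 0.448 TPM in CTNNB1. All CTNNB1 libraries lay below all GFP libraries, and the CTNNB1 mean was 61.9% lower. An exact two-sided permutation test gave p = 0.1, the smallest that 3 libraries against 3 allow. With no filter on low values, limma called the gene over 17849 genes (log2 fold change -0.5, SE 0.08, adjusted p = 0.0151), where 12.6% of genes were called. Because 1 is added before the logarithm this understates the change, which was -1.19 on the log2 scale with 0.1 added.

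ABCC2 held 0.169, 0.2 and 0.412 TPM in shNT1 and 0.141, 0.222 and 0.16 TPM in shAPC, and these groups overlapped. With no filter its log2 fold change there was -0.1 (SE 0.08, limma adjusted p = 0.496), and the exact two-sided permutation p was 0.4. As with ABCG2, the GFP mean was the highest of the 4 groups, at 0.893 TPM against 0.175 to 0.34 TPM in the others. The CTNNB1, shNT1 and shAPC libraries overlapped with their neighbours in the order.

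ABCB1, the P-glycoprotein that exports hydrophobic drugs, was listed at 0 in 8 of the 12 libraries. The 4 others held between 0.0143 and 0.0184 TPM: CTNNB1 replicate 1, shNT1 replicates 1 and 3, and shAPC replicate 1. No change in either arm was detectable at such levels. ABCB4, its paralog and a phospholipid transporter of bile, was between 0.226 and 0.645 TPM in all 12 libraries, and its groups overlapped in both arms.

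The effects of the 2 arms on each pump were compared directly by a contrast over the 12 libraries, taking the shAPC effect from that of CTNNB1. Of the 5 pumps tested, 2 differed (1 with a positive and 1 with a negative difference), where 16.1% of all 11741 genes were called (13.3% positive and 2.76% negative). ABCG2 fell more with CTNNB1 than with shAPC, by -0.66 on the log2 scale (SE 0.1, 95% interval -0.87 to -0.45, limma adjusted p = 0.000826). ABCC3 fell less with CTNNB1, with a difference of 0.35 (SE 0.08, 95% interval 0.18 to 0.52, limma adjusted p = 0.0119). The median difference over all genes was 0.11 and fell to 0 with median-ratio scaling, where the difference was -0.77 for ABCG2 (limma adjusted p = 0.000154) and 0.24 for ABCC3 (limma adjusted p = 0.0349). Higher differences made up 82.8% of all calls with TPM as deposited and 54.7% with median-ratio scaling. The number of all genes called moved by over 1.5 times without GFP replicate 1 (1092), GFP replicate 2 (995), shAPC replicate 2 (1246) or shAPC replicate 3 (1021), while both pumps were called in each of these fits.

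The differences of the other 3 pumps were not called. That of ABCC4 was 0.12 (95% interval -0.06 to 0.3, limma adjusted p = 0.336), that of ABCC1 0.18 (95% interval -0.01 to 0.37, limma adjusted p = 0.176) and that of ABCC5 -0.17 (95% interval -0.47 to 0.13, limma adjusted p = 0.434). The ratio of ABCC3 to ABCG2 within a library joins the 2 pumps that the contrast called. It restates their changes in a form that a factor per library cannot alter, and is no separate result. The GFP values also carry the ABCG2 level that stood apart from the other control. This ratio was higher with CTNNB1 than with GFP and lower with shAPC than with shNT1. It lay between 1.3 and 1.44 in GFP and between 1.99 and 2.39 in CTNNB1, and between 2.25 and 2.37 in shNT1 and between 1.7 and 1.95 in shAPC. The groups of each arm did not overlap in this ratio.

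**Figure D3:**
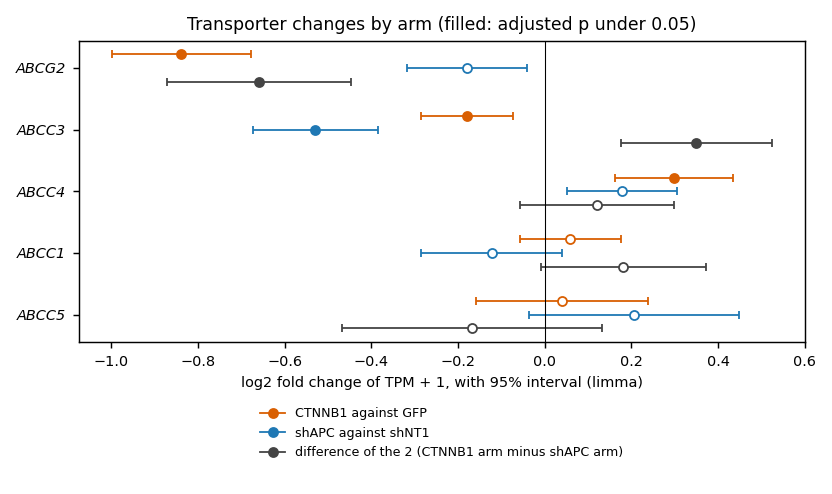
Log2 fold change of TPM + 1 with its 95% interval from limma (x axis) for the 5 transporters tested (y axis), for CTNNB1 against GFP, shAPC against shNT1 and the difference of the arms; filled points passed an adjusted p under 0.05. ABCG2 is farthest from 0 with CTNNB1 (-0.84), ABCC3 with shAPC (-0.53), and ABCC4 lies above 0 in both arms.

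In the authors' deposited table for CTNNB1 the log2 fold change of ABCG2 was -0.92 (adjusted p = 0.00113 by limma), that of ABCC3 -0.25 (0.00977), that of ABCC4 0.23 (0.0288) and that of ABCC2 -1.54 (0.0174). In the authors' deposited table for APC it was -0.49 for ABCC3 (adjusted p = 0.00385 by limma), 0.22 for ABCC4 (0.0593) and -0.14 for ABCG2 (0.196). ABCC1, ABCC5 and ABCB1 had no adjusted p under 0.05 in either of the authors' deposited tables. The calls for the 5 pumps tested were thus the same in the authors' deposited tables and in the fits here.

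The counts in the gene lists below stand beside the shares of all genes called with TPM as deposited. These were 16.3% higher and 7.16% lower with CTNNB1, and 7.24% higher and 14.9% lower with shAPC. The rest of the ABC superfamily was set beside the drug pumps, with 20 of 41 genes tested in each arm. With CTNNB1, 0 were higher and 5 lower, with a median log2 fold change of -0.07 against 0.06 over all genes. The lower calls numbered 8 with median-ratio scaling and 7 with quantile normalization, with 0 higher in both. The replicate block gave 1 higher and 5 lower. ABCB6, a porphyrin transporter, fell from 25 ± 1.5 to 12.8 ± 0.5 TPM (log2 fold change -0.91, limma adjusted p = 2.4e-05). Its GFP mean was again the highest of the 4, against 12.1 TPM in shNT1 and 9.78 TPM in shAPC. ABCG1, which exports cholesterol, fell from 7.08 to 4.44 TPM, and ABCB8, in the mitochondrial inner membrane, from 14.3 to 10.7 TPM.

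With shAPC, 0 of the 20 were higher and 5 lower (median -0.08 against -0.05 over all genes), or 2 higher and 5 lower with median-ratio scaling and 2 higher and 4 lower with quantile normalization. ABCG1 fell in this arm too, from 9.63 ± 1.3 to 6.23 ± 0.68 TPM (log2 fold change -0.55, limma adjusted p = 0.00566). ABCB10, a mitochondrial transporter linked to haem synthesis, fell from 25.6 ± 0.55 to 17.9 ± 0.27 TPM (-0.5, limma adjusted p = 0.00026) and went from 23.3 to 26.4 TPM in the CTNNB1 arm, where it was not called (limma adjusted p = 0.127). The arms differed for ABCB10 (0.67, limma adjusted p = 0.000463) and for ABCB6 (-0.64, limma adjusted p = 0.0258), and not for ABCG1 (-0.02, limma adjusted p = 0.943).

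Known regulators of transporter and drug metabolism genes, most of them transcription factors, moved both ways. Of 16 tested out of 20, 5 were higher and 3 lower with CTNNB1 (4 and 4 with median-ratio scaling, 6 and 4 with quantile normalization), and 4 were higher and 4 lower with shAPC (5 and 4 with quantile normalization). ARNT, the partner of the aryl hydrocarbon receptor, rose from 15.5 to 20.2 TPM with CTNNB1 and from 19.1 to 24.1 TPM with shAPC. FOXO3, whose reads may be shared with a near-identical pseudogene, rose from 22.2 to 36.3 TPM and, in the hairpin arm, from 29.1 to 36.1 TPM. NR1H3, the oxysterol receptor LXR alpha, fell from 17.7 to 13.4 TPM and from 19.6 to 15.9 TPM. PPARG fell from 38.4 to 30.5 TPM with shAPC (limma adjusted p = 0.00346) and was at 34.7 and 31.7 TPM in GFP and CTNNB1 (limma adjusted p = 0.106).

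Of the drug metabolism enzymes, only some of which form the conjugates that ABCC pumps export, 25 of 40 were tested with CTNNB1 and 24 with shAPC. With CTNNB1, 1 was higher and 9 lower (median -0.16 against 0.06 over all genes). The counts were 0 and 13 with median-ratio scaling, 0 and 10 with quantile normalization and 2 and 11 with the replicate block. With shAPC, 1 was higher and 11 lower (median -0.2 against -0.05), or 2 and 9 with median-ratio scaling and 3 and 8 with quantile normalization. The 11 with TPM as deposited include UGT1A1, UGT1A8 and UGT1A10. Sharing of reads among these UGT1A genes was not examined, so their calls may not be separate. The sulfotransferase SULT2B1 fell from 33.8 to 22.2 TPM and from 19.5 to 14.7 TPM, and the cytochrome P450 CYP2S1 from 71.6 to 60 TPM and from 73.7 to 54.5 TPM. The glutathione transferase MGST1 fell from 347 ± 5.2 to 249 ± 6.1 TPM with CTNNB1 (log2 fold change -0.48, limma adjusted p = 5.8e-05) and was at 247 and 221 TPM in shNT1 and shAPC (limma adjusted p = 0.059). GSTA4 fell from 18.2 to 13.2 TPM with CTNNB1, and SULT1A1 from 17.9 to 9.57 TPM, the latter with near-identical paralogs that make its separate level uncertain. Neither was called with shAPC.

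Of 24 solute carriers and copper pumps that take up or extrude drugs, 13 were tested. With CTNNB1, 2 were higher and 4 lower, where 16.3% and 7.16% of all genes were (median -0.03 against 0.06 over all genes). The counts were 1 and 5 with median-ratio scaling and 1 and 4 with quantile normalization or the replicate block. With shAPC, 2 were higher and 2 lower, where 7.24% and 14.9% of all genes were (median -0.12 against -0.05). Both scalings gave the same counts, and the replicate block gave 1 and 1. SLC22A18, an organic cation transporter-like protein, fell from 11 to 5.53 TPM and from 8.04 to 6.11 TPM. SLCO4A1, an uptake carrier of organic anions, fell from 54.5 to 43.3 TPM with CTNNB1, and SLC29A2, a nucleoside transporter, from 26.5 to 22 TPM. The 2 called higher with CTNNB1 were other nucleoside transporters, SLC28A3 (4.48 to 6.61 TPM) and SLC29A1 (42.3 to 48.3 TPM). SLC28A3 was also called higher with shAPC (2.59 to 5.38 TPM), and SLC29A1 was not called there. The copper pump ATP7A fell from 22.6 to 18.1 TPM with shAPC, and the anion carrier SLCO1B3 rose from 12.8 to 15.9 TPM (limma adjusted p = 0.0449).

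**Figure D4:**
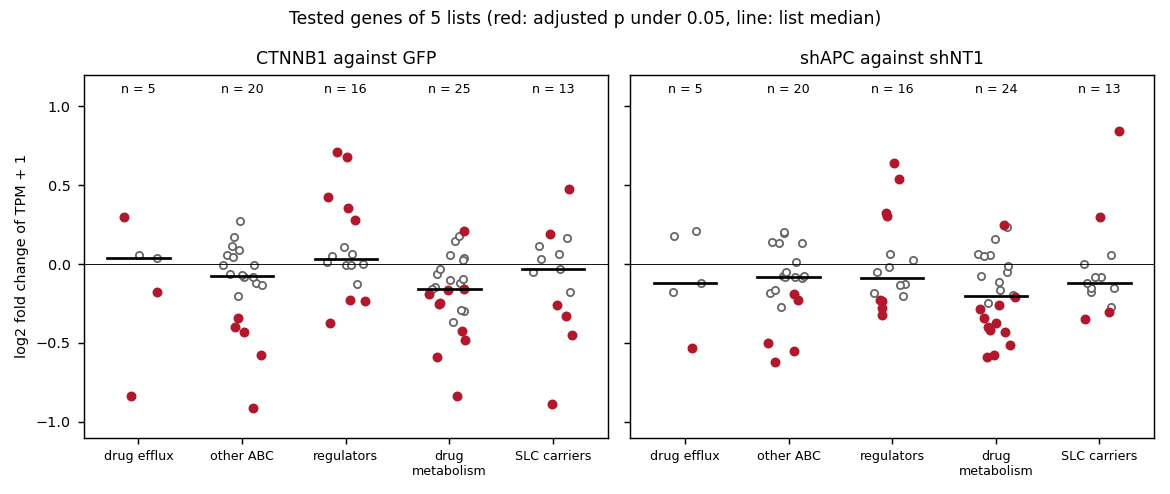
Log2 fold change of TPM + 1 (y axis) of the tested genes of the drug efflux transporters and 4 further lists (x axis) in each arm; red points passed an adjusted p under 0.05 and the line is the list median. Among the 5 drug efflux transporters tested, 3 are called with CTNNB1 and 1 with shAPC, and the enzyme list has medians of -0.16 and -0.2.

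The genes whose profiles over the 12 libraries were most like those of the 3 called pumps were taken from 9435 genes with a mean of at least 5 TPM, by the root mean square difference of log2(TPM + 1) after centring each gene on its own mean. The libraries share group and scaling, so likeness is a description. For ABCG2 they were PSMA1, a proteasome subunit (difference 0.121), ATG4A, a protease of autophagy (0.124), and ABHD3, a lipase (0.128), against a root mean square of 0.346 for ABCG2 about its own mean. PSMA1 averaged 499 TPM in GFP and 326, 315 and 301 TPM in CTNNB1, shNT1 and shAPC, so its GFP level also stood apart. For ABCC3 they were SULF2 (0.0537), a heparan sulfate sulfatase, NANS (0.0574), the sialic acid synthase, and the transcription factor KLF13 (0.063), against 0.209. NANS averaged 167, 143, 165 and 120 TPM in GFP, CTNNB1, shNT1 and shAPC. For ABCC4 they were SPECC1 (0.045), SERINC5 (0.0527) and the amino acid transporter SLC7A6 (0.0628), against 0.173.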

How the data were processed

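RNA was sequenced from HT-29 cells in 12 libraries, 3 per group. The submitters' processing notes name STAR 2.7.3a, limma and the build hg38; the annotation, quantification tool and filters are not given in the sources used here. The authors deposited a table of TPM with 25528 rows. They also deposited a limma table per comparison holding log2 fold changes with their p-values and adjusted p-values, per the file headers.

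From the TPM, each arm was fitted with limma 3.58.1 (R 4.3.3) on log2(TPM + 1), with a variance trend, after removing genes whose mean TPM was under 1, and called at a Benjamini-Hochberg adjusted p under 0.05. The difference of the arms was a contrast over all 12 libraries. Adding 1 understates changes of weak genes. ABCB1 and ABCC2 fell under the filter; for them exact permutation tests and the fit with no filter are given. In the leave-one-out fits a group keeps 2 libraries. The members and gene lists were chosen with earlier results of these data known. The named genes are the 7 transporters, APC, CTNNB1, ABCB4 and the 3 genes most like each called transporter. They also include, in each list, up to 5 called genes with the largest change (mean over 12 libraries at or above 5 TPM). CD14, CDX1, CDX2, SLC28A3, SLC29A1, the UGT1A genes and 4 epithelial markers were singled out after their values were seen. Some genes that this rule names are not reported here. The alternatives tried were 0.1 as pseudocount, no filter on level, a minimum of 5 TPM, median-ratio scaling, quantile normalization, no trend, one fit of 4 groups, a replicate block, an adjusted p under 0.01, and each library left out. Promoter sequences are from RefSeq, and 5 of 7 genes matched by symbol.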

Additional observations from a re-analysis of the deposited data

Results flagged for a closer look

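A contrast of the 2 arms picked out ABCG2 and ABCC3, whose responses to CTNNB1 and to shAPC were unequal when tested directly. The log2 fold change of ABCG2 was -0.84 with CTNNB1 and -0.18 with shAPC, a difference of -0.659 (limma adjusted p = 0.000826). Its perturbed libraries lay below all control libraries in both arms. For ABCC3 the log2 fold changes were -0.18 and -0.53, a difference of 0.35 (limma adjusted p = 0.0119). Over the 20 alternatives the difference lay between -0.77 and -0.58 for ABCG2, with an adjusted p of at most 0.0047, and between 0.24 and 0.38 for ABCC3, with an adjusted p of at most 0.0429. For ABCG2 the GFP libraries were the highest of all 12. The vector, day and doxycycline cannot be told apart from the arm.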

How the results depend on the processing

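The 15 log2 fold changes of the tested transporters gave 247 values under the alternatives, of which 232 kept both direction and side of the threshold, 7 lost a call, 4 gained one and 4 changed sign. The sign changes were those of ABCC1 (-0.0133) and ABCC5 (-0.0203) with CTNNB1 under median-ratio scaling, ABCC5 (-0.077) with CTNNB1 under quantile normalization, and the ABCC4 difference of the arms (-0.00745) under quantile normalization; none of these was called. The cause was not tested. The called transporters numbered 2 to 3 in the CTNNB1 arm when a library was left out. In the shAPC arm they numbered 2 with a minimum of 5 TPM, with median-ratio scaling, with quantile normalization and with one fit of all 4 groups, ABCC4 being added. At an adjusted p under 0.01 the difference of the arms held for 1 transporter, and all calls numbered 1253 with CTNNB1, 1151 with shAPC and 628 for the difference. Leaving out a library gave 1499 to 3190, 1484 to 2252 and 995 to 2143 calls.

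With the replicate block, by the numbers in the titles, the difference was called for 1145 genes in place of 1885; the number of transporters called was the same in each comparison (3, 1 and 2). In the shAPC arm the block gave 0 higher and 7 lower calls among the drug metabolism enzymes and 1 and 1 among the solute carriers and copper pumps. Same-numbered libraries had a mean correlation of deviations of 0.134 in the CTNNB1 arm and -0.119 in the shAPC arm, against -0.066 and 0.06 for different numbers. Every library of the CTNNB1 arm correlated best with its own number, though 1 pair reached only 0.07, and no library of the shAPC arm did. The labels do not say what the numbers mark, so they were not taken to pair the libraries. Read depth is unknown, which limits ABCB1, ABCC2 and ABCC5 most.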
